A study of Homo sapiens with 15 samples.

Results

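Genes of secreted inflammatory signals were followed through 15 RNA-seq libraries of human retinal organoid culture. The 10 genes are the chemokines CCL2, CXCL1, CXCL2, CXCL8 and CXCL12, the interleukin-6 family cytokines IL6, IL11 and LIF, the interleukin IL1B and the colony-stimulating factor CSF1. These 10 of 19684 genes in the deposited tables were chosen by symbol, and each symbol stood for 1 identifier. The 5 groups held 3 libraries each. The first group was undifferentiated BC1-GFP cells, a human induced pluripotent stem cell (hiPSC) line that carries a GFP reporter, kept in mTeSR1 medium. The next groups were the neural retina layers of retinal organoids (ROs) grown from that line, taken 70 days (D70-RO) and 150 days (D150-RO) after induction. The last groups were induced Müller glial cells (iMGCs), which are adherent cells expanded from D150-ROs and collected on day 5 of passage 1 (P1 iMGC) or of passage 5 (P5 iMGC). All groups come from this 1 line and the labels name no inflammatory stimulus. The organoid medium and the iMGC medium both held 10% serum, so serum is shared by those groups and absent only from the hiPSC medium.

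Müller glia span the thickness of the retina, and in injured or inflamed retina they are a known source of chemokines and cytokines that call in leukocytes and microglia and signal to neurons. Chemokines bind G protein-coupled receptors on the cells they attract. IL6, IL11 and LIF each bind a specific receptor chain that pairs with the common signalling chain gp130, the product of IL6ST, which acts through JAK kinases and STAT3. Many of these genes are classic targets of NF-kappaB, the transcription factor family that interleukin-1, TNF and Toll-like receptors switch on.

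The labelled cell types were first set against marker genes. In this report a level is given in FPKM, a fragment count scaled for transcript length and for the mapped fragments of the library. The iMGC libraries held VIM at 2141 to 2901 FPKM and DKK3 at 241 to 395 FPKM. The Müller marker RLBP1 was at most at 0.09 FPKM in the iMGCs, GLUL was at 12.3 to 15.2 FPKM against 97.6 to 102 FPKM in D150-ROs, and SLC1A3 was at 0.36 to 1.23 FPKM against 27.6 to 28.7 FPKM. CRYAB and APOE, also on the list of 10 Müller markers, were higher in the iMGCs, CRYAB at 27.8 to 141 FPKM. Of the 9 markers tested against D150-ROs, 3 were called higher and 5 lower at P1, and 4 higher and 5 lower at P5. The markers were thus mixed, and the cells are called iMGCs after their label. A list of 10 fibroblast and mesenchymal markers summed to 2298 to 2843 FPKM in iMGCs and to 30.6 to 37.7 FPKM in D150-ROs, with COL1A1 at 1946 to 2352 FPKM in iMGCs. In hiPSCs the same list summed to 319 to 379 FPKM. At each passage 9 were tested against D150-ROs, with 8 higher and PDGFRA lower, where 20.0% (P1) and 20.8% (P5) of all genes were higher. Only 5 of the 10 had a mean of at least 1 FPKM in D150-ROs, so the filter bears on these directions. Of 11 microglia and macrophage markers only CD68 reached a mean of 1 FPKM in iMGCs, and AIF1, P2RY12 and TYROBP were at 0 FPKM in all 6. The sum of 11 retinal neuron markers lay between 735 and 758 FPKM in D150-ROs and between 0.62 and 1.17 FPKM in iMGCs. How far this difference in cell makeup takes part in the results on cytokines was not tested. In bulk RNA, fewer cells of a type and less RNA per cell cannot be told apart. Library totals ran from 11349600 to 20398755 expected counts, and D70-RO replicate 2 had the lowest total. The iMGC libraries stand in another deposited table than the hiPSC and RO libraries. The ratio of FPKM to the share of counts, over 2964 genes with at least 500 counts in every library, differed from the median of libraries by 0.00 (log2, median over genes) in each of the 15, so both tables share 1 scale.

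**Figure D1:**
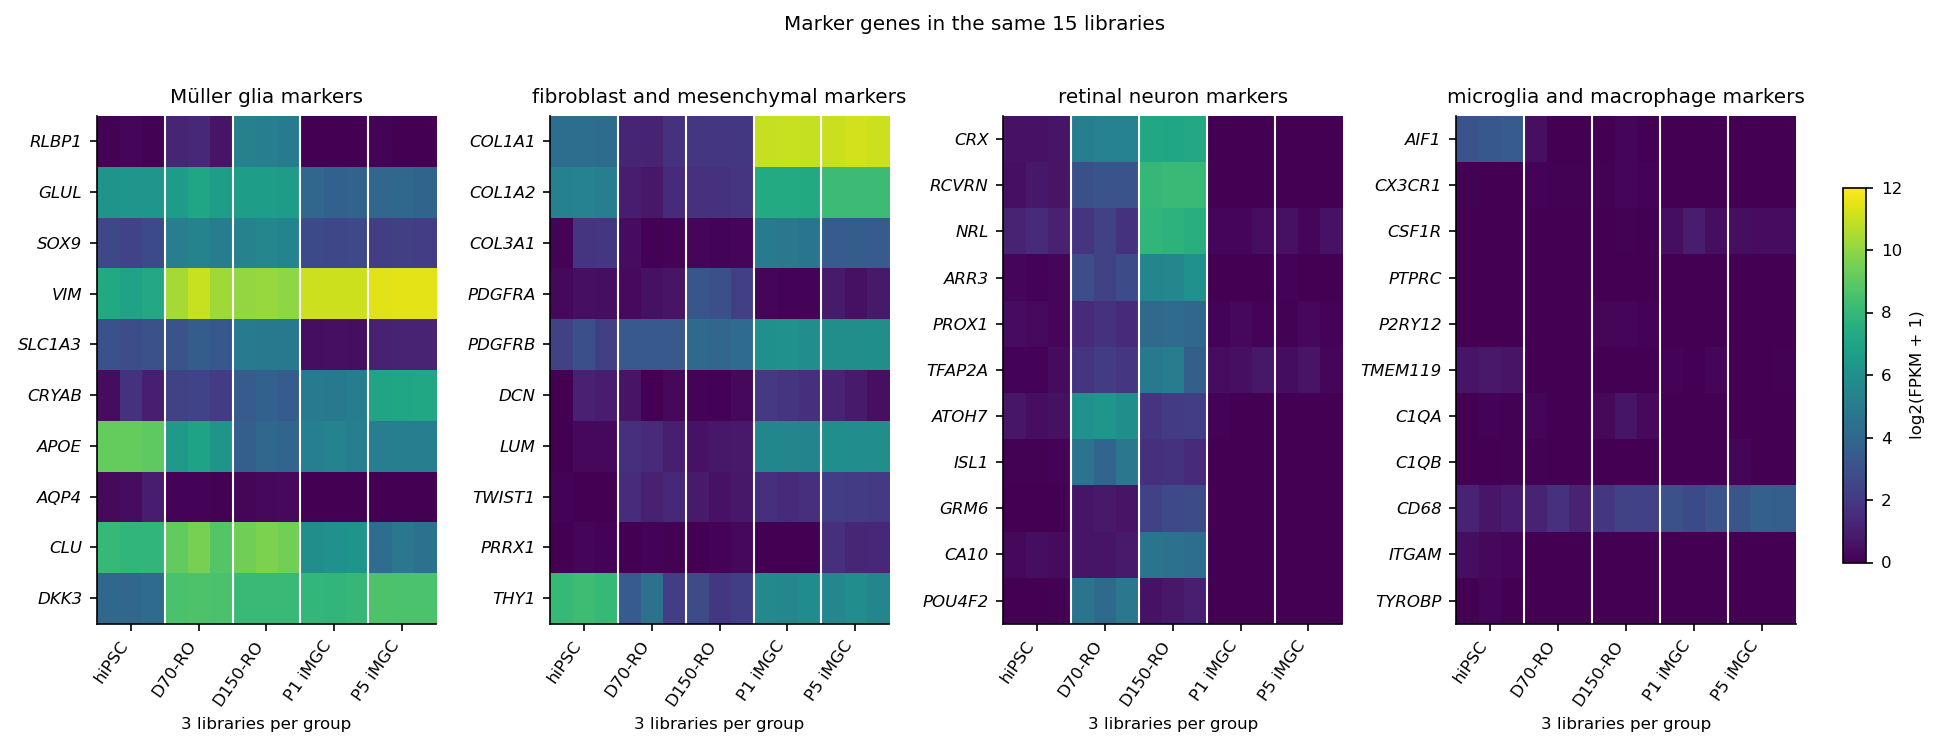
Marker genes (rows) in the 15 libraries (columns, 3 per group, separated by white lines), coloured by log2(FPKM + 1). RLBP1, the retinal neuron markers and all microglia markers but CD68 and CSF1R are dark or nearly so in the iMGC columns, while COL1A1 and VIM are brightest there.

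The 10 genes as a whole were low in hiPSCs and organoids and higher in the iMGCs. Their FPKM summed to 30.6 to 34.0 in hiPSCs, 14.3 to 33.1 in D70-ROs, 39.1 to 43.0 in D150-ROs, 116 to 126 in P1 iMGCs and 151 to 158 in P5 iMGCs. The number of genes with a mean of at least 1 FPKM was 4, 3, 5, 6 and 8 in the same order. One gene took the largest share of each sum, and it changed between organoids and iMGCs. CXCL12 held 82.2%, 72.6% and 57.6% of the sum in hiPSCs, D70-ROs and D150-ROs. LIF held 63.3% at P1 and 40.1% at P5.

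**Figure D2:**
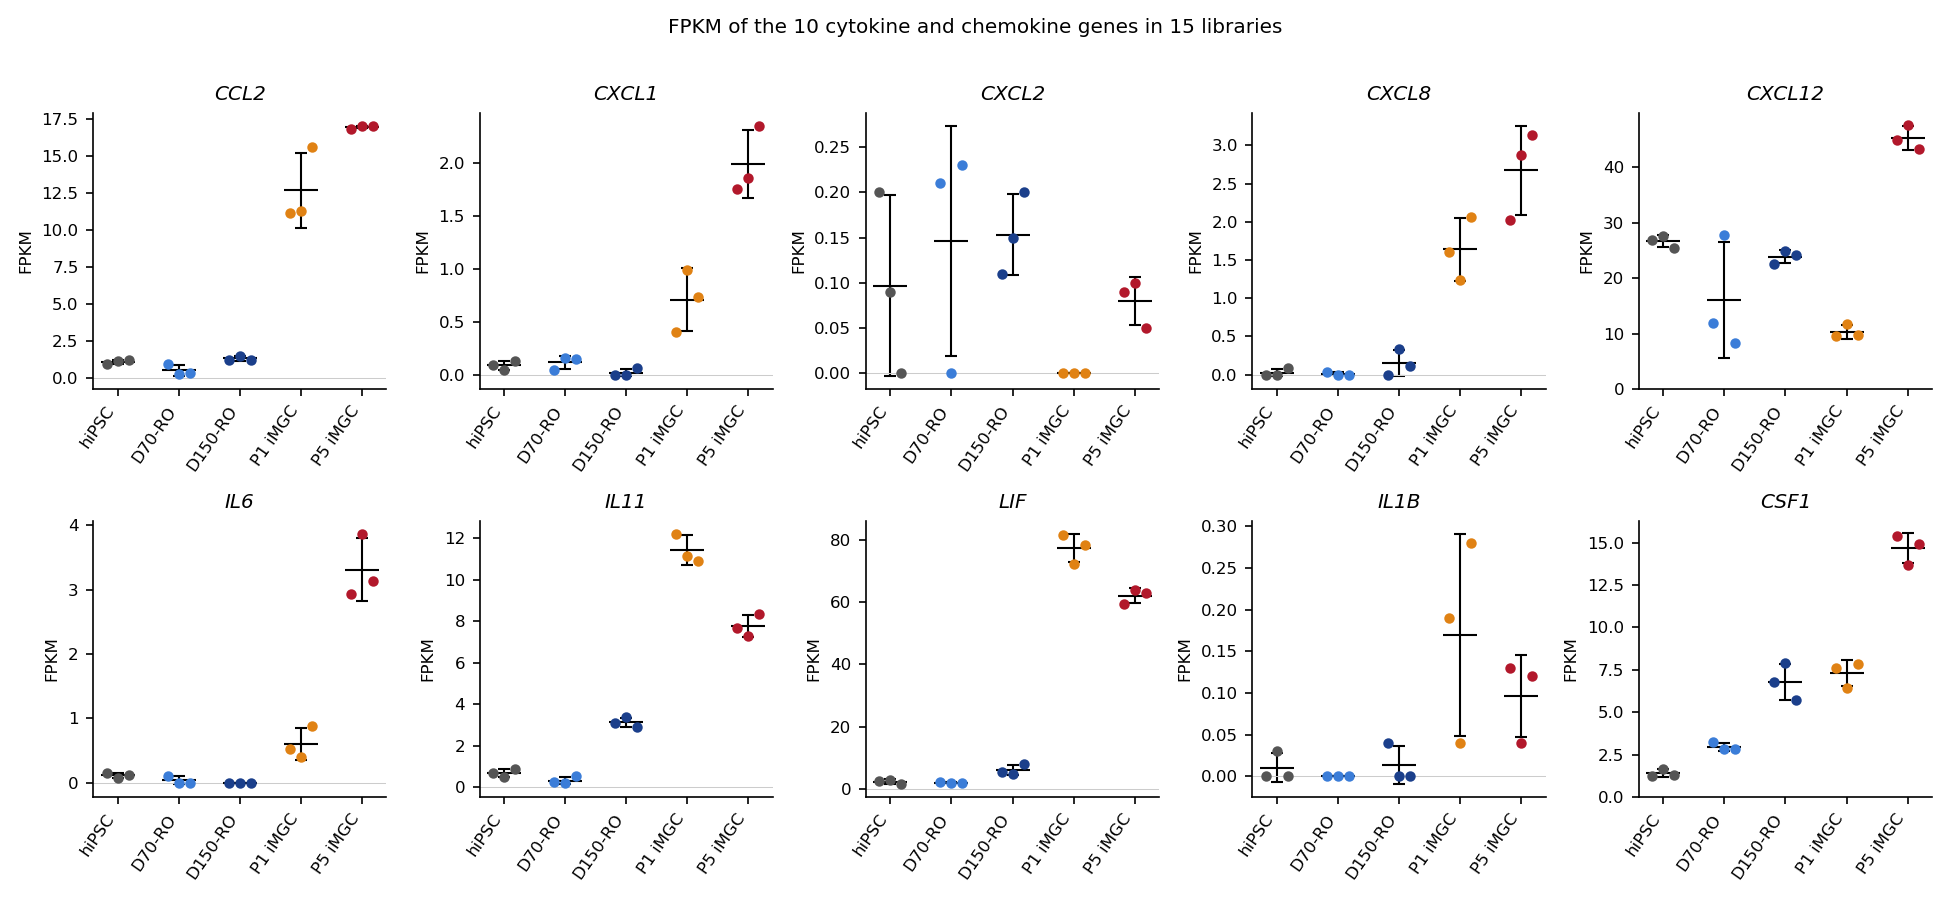
FPKM (linear axis, a scale of its own in each panel) of the 10 genes in hiPSC, D70-RO, D150-RO, P1 iMGC and P5 iMGC libraries; points are the 3 libraries of a group, the black dash is their mean and the bar the SD. LIF reaches 72.3 to 81.4 FPKM at P1 against at most 7.88 FPKM in any hiPSC or RO library, and CXCL2 and IL1B stay under 0.3 FPKM throughout.

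Groups were compared on the rounded expected counts by the quasi-likelihood test of edgeR, with TMM scaling between libraries and p-values adjusted after Benjamini and Hochberg. A gene entered a comparison if 3 or more of its 6 libraries reached 1 FPKM. A gene is called higher or lower, or said to have risen or fallen, only with an adjusted p under 0.05 and a change of at least 2-fold. All fold changes below are on this count scale unless FPKM is named.

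Between P1 iMGCs and D150-ROs, 6 of the 10 genes were tested, 4 of them (CCL2, CXCL8, IL11 and LIF) rose and 0 fell. Of all 12896 genes tested, 20.0% were called higher and 24.1% lower, and 87.9% had FPKM ranges that did not overlap. Without the filter on low values 8 of the 10 were called, 7 higher and CXCL2 lower, where 18.1% of 17164 genes were called higher and 24.3% lower. The median log2 change was 3.27 over the 6 genes and −0.05 over all genes. Between P5 iMGCs and D150-ROs, 8 of the 10 were tested and 8 rose, where 20.8% of all 12933 genes were called higher and 23.9% lower, 88.5% did not overlap, and the medians were 4.29 and −0.05. CXCL1, CXCL8 and IL6 were tested there only because the P5 libraries passed 1 FPKM, so these 3 had to come out higher, and the same holds for CXCL8 at P1. The other 5 (CCL2, CXCL12, IL11, LIF and CSF1) had at least 1 FPKM in all 6 libraries. Both comparisons use the same 3 D150-RO libraries.

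The scale of the comparison with D150-ROs bears on the smaller changes. On log2(FPKM + 1) with limma, the median of all genes shifted by −0.55 at P1 and −0.60 at P5 relative to the count scale. The share of called genes that were higher was 22.9% instead of 45.4% at P1 and 22.4% instead of 46.5% at P5. A gene is therefore read against that shift. CCL2, CXCL8, IL11 and LIF stayed called higher on both scales. CXCL12 and CSF1 are the members where the scale matters, as described with each.

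Between P5 and P1 iMGCs, 8 of the 10 were tested, and CXCL12, IL6 and CXCL1 rose while 0 fell. IL6 and CXCL1 were under 1 FPKM in all P1 libraries and were tested only through the P5 libraries, so these 2 had to come out higher, and the count and median are no support. Only 1.94% of all 11366 genes were called higher and 0.977% lower in this comparison, and 39.5% did not overlap. The medians were 0.85 over the 8 genes and −0.00 over all genes. The other 5 genes (CCL2, CXCL8, IL11, LIF and CSF1) were not called.

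**Figure D3:**
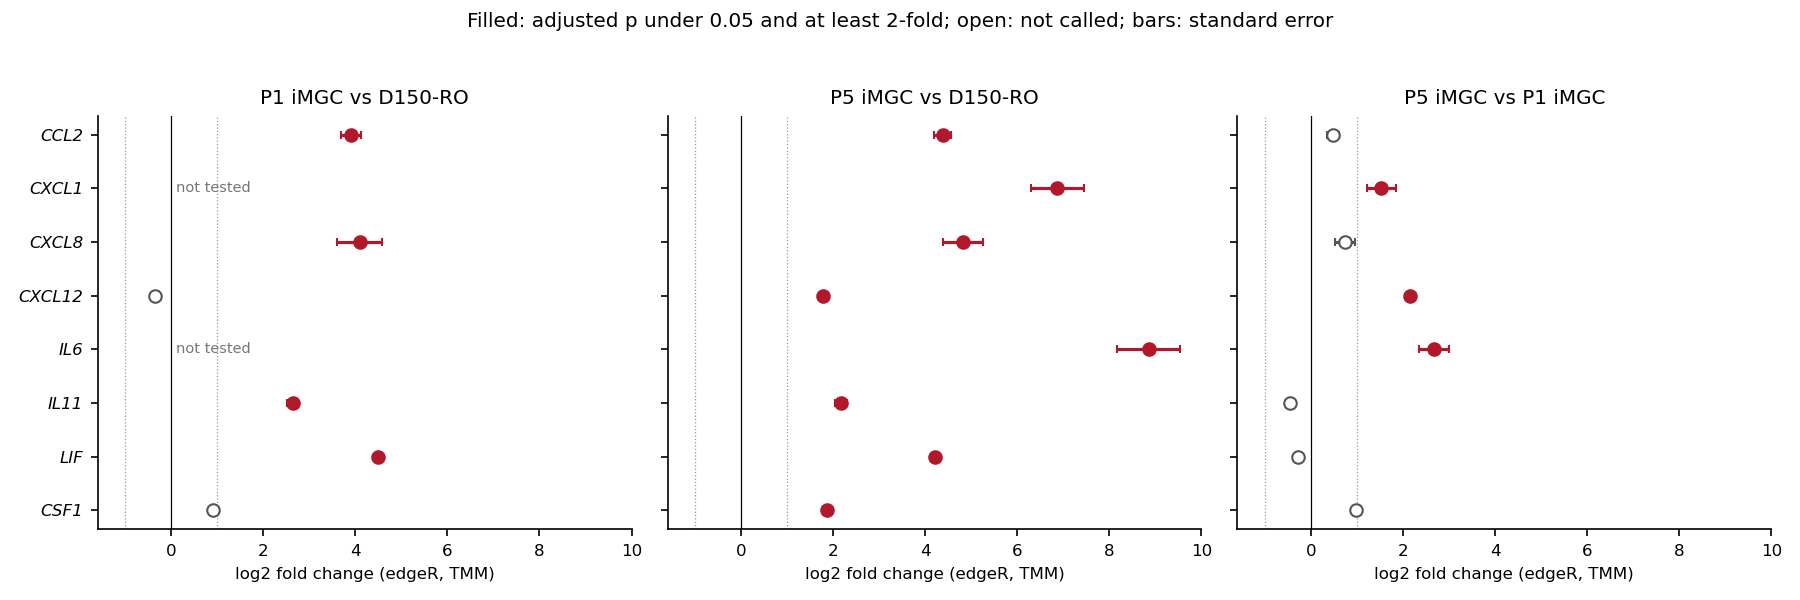
Log2 fold changes on the count scale (edgeR, TMM, horizontal axis) of the 8 genes tested at least once in 3 comparisons of iMGCs; bars are standard errors, filled points are called, open points are not and dotted lines mark a 2-fold change. All points are filled and right of the dotted line for P5 iMGC against D150-RO, while IL11 and LIF lie left of 0 for P5 against P1 iMGC. The IL6 point against D150-RO is fitted to a group with 0 counts and depends on the fit's prior count.

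CCL2 encodes the chemokine MCP-1, which draws monocytes through the receptor CCR2. The gene (ENSG00000108691) lies on chromosome 17 at 34255218 to 34257203 (positions of genes here are from GENCODE 29 on GRCh38). It was low before passaging. The hiPSCs had 0.94, 1.14 and 1.19 FPKM, D70-ROs 0.96, 0.24 and 0.30 FPKM, and D150-ROs 1.22, 1.49 and 1.23 FPKM. In P1 iMGCs it had 11.18, 11.26 and 15.61 FPKM and in P5 iMGCs 16.86, 17.03 and 17.02 FPKM. Each iMGC library stood above each library of the other groups, and P5 above P1. CCL2 rose 15.0-fold from D150-ROs to P1 (log2 change 3.90 with a standard error, SE, of 0.22, edgeR adjusted p = 1.21e-10) and 20.7-fold to P5 (4.37, SE 0.17). From P1 to P5 the change of 0.48 (SE 0.12, edgeR adjusted p = 0.00479) was under 2-fold. From D70-ROs to D150-ROs CCL2 was not called (log2 change 1.06, SE 0.50, edgeR adjusted p = 0.0836), but without D70-RO replicate 1 it was, at 1.99 (adjusted p = 0.0106). CCL2 was under 1 FPKM in all D70-RO libraries. It was thus tested there only through D150-ROs and had to come out higher, so that call is no support.

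CXCL8, CXCL1 and CXCL2 encode chemokines that attract neutrophils through CXCR1 and CXCR2, and all lie in the chemokine cluster of chromosome 4. CXCL8 (ENSG00000169429, chromosome 4, 73740506 to 73743716) had at most 0.34 FPKM and 15 counts in all over the 9 hiPSC and RO libraries. It had 1.61, 1.24 and 2.07 FPKM in P1 iMGCs, from 141 counts, and 2.02, 2.87 and 3.14 FPKM in P5 iMGCs, from 223 counts. The iMGC libraries lay above all others, and the P1 and P5 libraries overlapped. CXCL8 rose 17.0-fold from D150-ROs to P1 (log2 change 4.09, SE 0.48, edgeR adjusted p = 9.17e-07) and 28.2-fold to P5 (4.82, SE 0.44).

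CXCL1 (ENSG00000163739, chromosome 4, 73869393 to 73871242) was lower still. It had at most 0.16 FPKM in any hiPSC or RO library, then 0.40, 0.99 and 0.73 FPKM at P1 and 1.75, 1.86 and 2.35 FPKM at P5. The P5 libraries stood above the P1 libraries and those above the rest. CXCL1 rose 2.88-fold from P1 to P5 (log2 change 1.53, SE 0.31, edgeR adjusted p = 4.43e-04), a change that a test against 2-fold itself did not pass (adjusted p = 0.791) and that was under 2-fold on log2(FPKM + 1), at 0.82. On log2(FPKM + 0.1) CXCL1 stayed called higher. Against D150-ROs, which held 1 count over 3 libraries, the ratio of counts at P5 was 169-fold with a 95% interval of 29.7 to 6729. CXCL2 (ENSG00000081041, chromosome 4, 74097035 to 74099293) was low throughout. It had 9 counts over the D150-ROs (0.11, 0.15 and 0.20 FPKM), 0 counts over the P1 iMGCs and 5 counts over the P5 iMGCs (0.09, 0.10 and 0.05 FPKM). CXCL2 never reached the level for testing, and 0 counts at P1 allow a level up to that of 3 counts.

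CXCL1 and CXCL2 are close copies, and the counting could split reads between them. Their longest protein-coding transcripts in GENCODE 29 shared 80.1% of aligned bases, against 69.9% between CXCL1 and CXCL3. The sequences before their starts are shown because the pair resembles each other there while CXCL2 stayed low, and because CXCL8 and IL6, which came up in the same iMGC libraries, hold the same short element. The sequences are the 250 bases before the RefSeq start (GRCh38.p14), which for some genes differs from the outermost GENCODE start, given 5′ to 3′ on the strand of the gene. Capitals mark matches to GGANTTTCC, to the NF-kappaB consensus of 10 bases that overlaps it, and to the AP-1 type element TGANTCA, searched on both strands.

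CXCL1, chr4:73869143-73869392, plus strand: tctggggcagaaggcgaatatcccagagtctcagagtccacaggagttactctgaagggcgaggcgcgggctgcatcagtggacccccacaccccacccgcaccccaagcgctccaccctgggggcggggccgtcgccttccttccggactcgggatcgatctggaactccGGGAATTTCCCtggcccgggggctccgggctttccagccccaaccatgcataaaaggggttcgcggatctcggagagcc
CXCL2, chr4:74099196-74099445, minus strand: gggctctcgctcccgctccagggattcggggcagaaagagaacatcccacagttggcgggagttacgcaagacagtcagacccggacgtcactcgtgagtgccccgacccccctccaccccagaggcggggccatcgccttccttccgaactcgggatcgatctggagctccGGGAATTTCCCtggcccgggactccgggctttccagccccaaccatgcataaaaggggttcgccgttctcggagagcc
CXCL8, chr4:73740319-73740568, plus strand: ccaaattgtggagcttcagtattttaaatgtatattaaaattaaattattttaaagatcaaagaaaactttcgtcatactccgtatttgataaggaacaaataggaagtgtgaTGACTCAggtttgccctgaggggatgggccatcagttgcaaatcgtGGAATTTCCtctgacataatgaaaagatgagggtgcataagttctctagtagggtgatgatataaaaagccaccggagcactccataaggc
IL6, chr7:22726950-22727199, plus strand: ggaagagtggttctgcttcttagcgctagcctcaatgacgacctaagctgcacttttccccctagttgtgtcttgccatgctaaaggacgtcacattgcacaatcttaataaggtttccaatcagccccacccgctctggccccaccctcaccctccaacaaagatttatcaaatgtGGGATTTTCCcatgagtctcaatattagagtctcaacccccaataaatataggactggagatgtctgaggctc

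The element GGANTTTCC stood in 4 of the 7 promoters found in the reference (CXCL1, CXCL2, CXCL8 and IL6), at −78 to −70 bases from the start in CXCL1, −77 to −69 in CXCL2, −91 to −83 in CXCL8 and −72 to −64 in IL6. Of all 35116 promoters of the same length 1.45% held it, and the element was chosen after the sequences were seen. The NF-kappaB consensus of 10 bases stood in 3 of the 7 (CXCL1, CXCL2 and IL6) and in 9.96% of all promoters. TGANTCA stood in 2 of the 7, in CXCL8 and at −96 to −90 in IL11, and in 6.57% of all promoters. The promoters of CXCL1 and CXCL2 were identical at 68.0% of aligned positions, element included. A match in letters is a description, and CXCL2, which holds the element, stayed under 0.3 FPKM in every library.

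CXCL12 encodes SDF-1, a chemokine made by stromal cells and neural tissue that binds CXCR4 and the scavenger receptor ACKR3. It was the one member at 8 FPKM or more in all 15 libraries (ENSG00000107562, chromosome 10, 44370165 to 44386493). The hiPSCs had 26.83, 27.64 and 25.49 FPKM, D70-ROs 11.98, 27.87 and 8.32 FPKM, and D150-ROs 22.62, 24.86 and 24.17 FPKM. P1 iMGCs had 9.51, 11.77 and 9.70 FPKM and P5 iMGCs 44.94, 47.70 and 43.33 FPKM. The P1 libraries thus lay below the hiPSC and D150-RO libraries and the P5 libraries above all others. CXCL12 rose 4.43-fold from P1 to P5 (log2 change 2.15, SE 0.07, edgeR adjusted p = 5.46e-18). Against D150-ROs the change at P1 was −0.35 (SE 0.08, edgeR adjusted p = 9.22e-04) and was not called, but it was called lower on log2(FPKM + 1), at −1.14. At P5 the rise over D150-ROs was 3.45-fold (1.78, SE 0.05, edgeR adjusted p = 2.03e-14), and on log2(FPKM + 1) it was under 2-fold, at 0.90. Both values on log2(FPKM + 1) are read against the shift of all genes, −0.55 at P1 and −0.60 at P5.

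The CXCL12 value of D70-ROs rested on 1 library. D70-RO replicate 2 was at 27.87 FPKM, above both other D70-RO libraries and above the hiPSC libraries. The change from hiPSCs was −0.99 (SE 0.32, edgeR adjusted p = 0.0160), just under 2-fold, and without that library it was called lower, at −1.58 (adjusted p = 2.81e-06). It was also called lower without hiPSC replicate 3, at −1.02, and under some other settings.

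IL6 encodes interleukin-6, a cytokine of the acute phase. The gene (ENSG00000136244) lies on chromosome 7 at 22725884 to 22732002. It had at most 0.15 FPKM in hiPSCs and D70-ROs and 0 counts over the D150-ROs. P1 iMGCs had 0.53, 0.40 and 0.88 FPKM, from 22 counts, and P5 iMGCs 2.93, 3.87 and 3.13 FPKM, from 135 counts. The groups of iMGCs did not overlap, and P1 lay above the RO and hiPSC libraries. IL6 rose 6.34-fold from P1 to P5 (log2 change 2.66, SE 0.32, edgeR adjusted p = 5.23e-07). With 3 counts as the upper limit for the D150-ROs, it was at least 11.0-fold higher at P1 and at least 70.3-fold higher at P5.

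IL11 encodes interleukin-11, a cytokine of the same family made by stromal cells under TGF-beta. Like LIF, it rose already between the organoid stages (ENSG00000095752, chromosome 19, 55364389 to 55370463). The hiPSCs had 0.70, 0.49 and 0.87 FPKM, D70-ROs 0.24, 0.20 and 0.53 FPKM, and D150-ROs 3.12, 3.37 and 2.93 FPKM. P1 iMGCs had 12.23, 11.17 and 10.89 FPKM and P5 iMGCs 7.70, 7.29 and 8.35 FPKM. P1 was the highest group and P5 lay between P1 and the D150-ROs, with no overlap. IL11 rose 8.46-fold from D70-ROs to D150-ROs (log2 change 3.08, SE 0.26, edgeR adjusted p = 1.06e-05) and 6.22-fold from D150-ROs to P1 (2.64, SE 0.12, edgeR adjusted p = 4.35e-12). It was under 1 FPKM in all hiPSC and D70-RO libraries, so that in both organoid comparisons it was tested only through D150-ROs and had to come out higher. From P1 to P5 its change of −0.46 (SE 0.09, edgeR adjusted p = 3.38e-04) was under 2-fold.

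LIF encodes leukemia inhibitory factor, a gp130 cytokine that acts on glia and photoreceptors in injured retina and is also known from stem cell culture. The gene (ENSG00000128342) lies on chromosome 22 at 30240447 to 30246851. The hiPSCs had 2.52, 2.85 and 1.41 FPKM, D70-ROs 2.21, 1.75 and 1.91 FPKM, and D150-ROs 5.24, 4.88 and 7.88 FPKM. P1 iMGCs had 81.44, 72.29 and 78.32 FPKM and P5 iMGCs 59.40, 63.89 and 62.96 FPKM, so that LIF was the highest of the 10 genes in each iMGC library. The P1 libraries lay above the P5 libraries and both far above the organoids. LIF rose 2.79-fold from D70-ROs to D150-ROs (log2 change 1.48, SE 0.26, edgeR adjusted p = 7.89e-04), a change that a test against 2-fold itself did not pass (adjusted p = 0.0611). It then rose 22.6-fold to P1 (4.50, SE 0.07, edgeR adjusted p = 1.39e-17). The change from P1 to P5 was −0.29 (SE 0.04, edgeR adjusted p = 3.66e-06), under 2-fold.

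Of these 3 gp130 cytokines, IL6 rose from P1 to P5, a direction that the filter on low values fixed, while IL11 and LIF had their highest levels at P1 and changed by less than 2-fold. For each of the 3 the P1 and P5 libraries did not overlap, as for 39.5% of all genes tested.

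IL1B encodes interleukin-1 beta, an upstream activator of many genes of this list in glia (ENSG00000125538, chromosome 2, 112829751 to 112836903). It stayed low, with 1 count over the hiPSCs, 0 over the D70-ROs, 1 over the D150-ROs, 14 over the P1 iMGCs and 6 over the P5 iMGCs. Its highest value was 0.28 FPKM, in P1 iMGC replicate 3, and it was not tested in any comparison. The ratio of counts between P1 iMGCs and D150-ROs was 21.0-fold, with a 95% counting interval of 3.20 to 889.

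CSF1 encodes the growth factor M-CSF, on which microglia and macrophages depend (ENSG00000184371, chromosome 1, 109910242 to 109930992). The hiPSCs had 1.24, 1.66 and 1.27 FPKM, D70-ROs 3.24, 2.83 and 2.82 FPKM, and D150-ROs 6.75, 7.88 and 5.74 FPKM. P1 iMGCs had 7.63, 6.42 and 7.84 FPKM and P5 iMGCs 15.40, 13.68 and 14.92 FPKM. Neighbouring groups did not overlap except D150-ROs and P1 iMGCs. CSF1 rose 2.87-fold from hiPSCs to D150-ROs (log2 change 1.52, SE 0.16, edgeR adjusted p = 1.78e-06) and 3.67-fold from D150-ROs to P5 (1.88, SE 0.09, edgeR adjusted p = 5.50e-12). The change from D150-ROs to P1 was 0.91 on the count scale (SE 0.10) and was not called, and in FPKM the means were 6.79 ± 1.07 and 7.30 ± 0.766 (SD, n = 3). From P1 to P5 it was 1.96-fold (0.97, SE 0.07, edgeR adjusted p = 1.19e-10), just under the limit, and it passed the limit without P1 iMGC replicate 3 (1.01) or without P5 iMGC replicate 3 (1.02).

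Among hiPSCs and organoids, fewer members were tested and called than between iMGCs and D150-ROs. Between D70-ROs and hiPSCs 3 of the 10 were tested and 0 were called, where 22.5% of 12954 genes were called higher, 21.1% lower and 75.5% did not overlap. Between D150-ROs and D70-ROs 5 were tested, and IL11 and LIF rose, where 16.6% of 12855 genes were called higher, 16.7% lower and 77.2% did not overlap. Between D150-ROs and hiPSCs 5 were tested, and IL11, LIF and CSF1 rose (IL11, in both, tested only through D150-ROs), where 29.8% of 13344 genes were called higher, 29.0% lower and 87.4% did not overlap. CXCL12 was 1.60-fold lower in D150-ROs than in hiPSCs, which is under 2-fold (log2 change −0.67, SE 0.09).

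The receptors and decoys of the 10 signals were read in the same libraries. CCR2, CXCR1 and CXCR2, the receptors of CCL2 and of the neutrophil chemokines, had 0 counts in all 6 iMGC libraries and in all 6 RO libraries. RNA of these receptors was thus not detected beside that of CCL2, CXCL1 and CXCL8. CXCR2 had 21 counts in hiPSCs.

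Of the receptors of CXCL12, CXCR4 fell and ACKR3 rose from D150-ROs to iMGCs. CXCR4, the signalling receptor, was at 2.19, 2.36 and 2.62 FPKM in hiPSCs. D70-ROs had 111.68, 156.27 and 135.29 FPKM and D150-ROs 24.36, 24.87 and 26.53 FPKM. It had 1 count over the P1 iMGCs and 0 over the P5 iMGCs, at least 439-fold lower at P5 than in D150-ROs. ACKR3, which binds CXCL12 and takes it up without G protein signalling, had 10.37, 12.91 and 8.73 FPKM in D150-ROs, 114.65, 111.62 and 108.54 at P1 and 65.93, 76.36 and 68.89 at P5. ACKR3 was 17.0-fold higher at P1 than in D150-ROs (log2 change 4.09, SE 0.06, edgeR adjusted p = 8.33e-18). ACKR1, a decoy that binds CCL2, CXCL1 and CXCL8, was at 13.42, 13.63 and 14.88 FPKM in D150-ROs and had 3 counts at P1 and 0 at P5, at least 281-fold lower at P5. Of these 3 receptors ACKR3 alone was above 0.1 FPKM in iMGCs, and ACKR2 stayed at 0.35 FPKM or less in all libraries. Against D150-ROs, CXCR4 and ACKR1 passed the filter only through the D150-RO libraries, which fixed their direction.

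**Figure D4:**
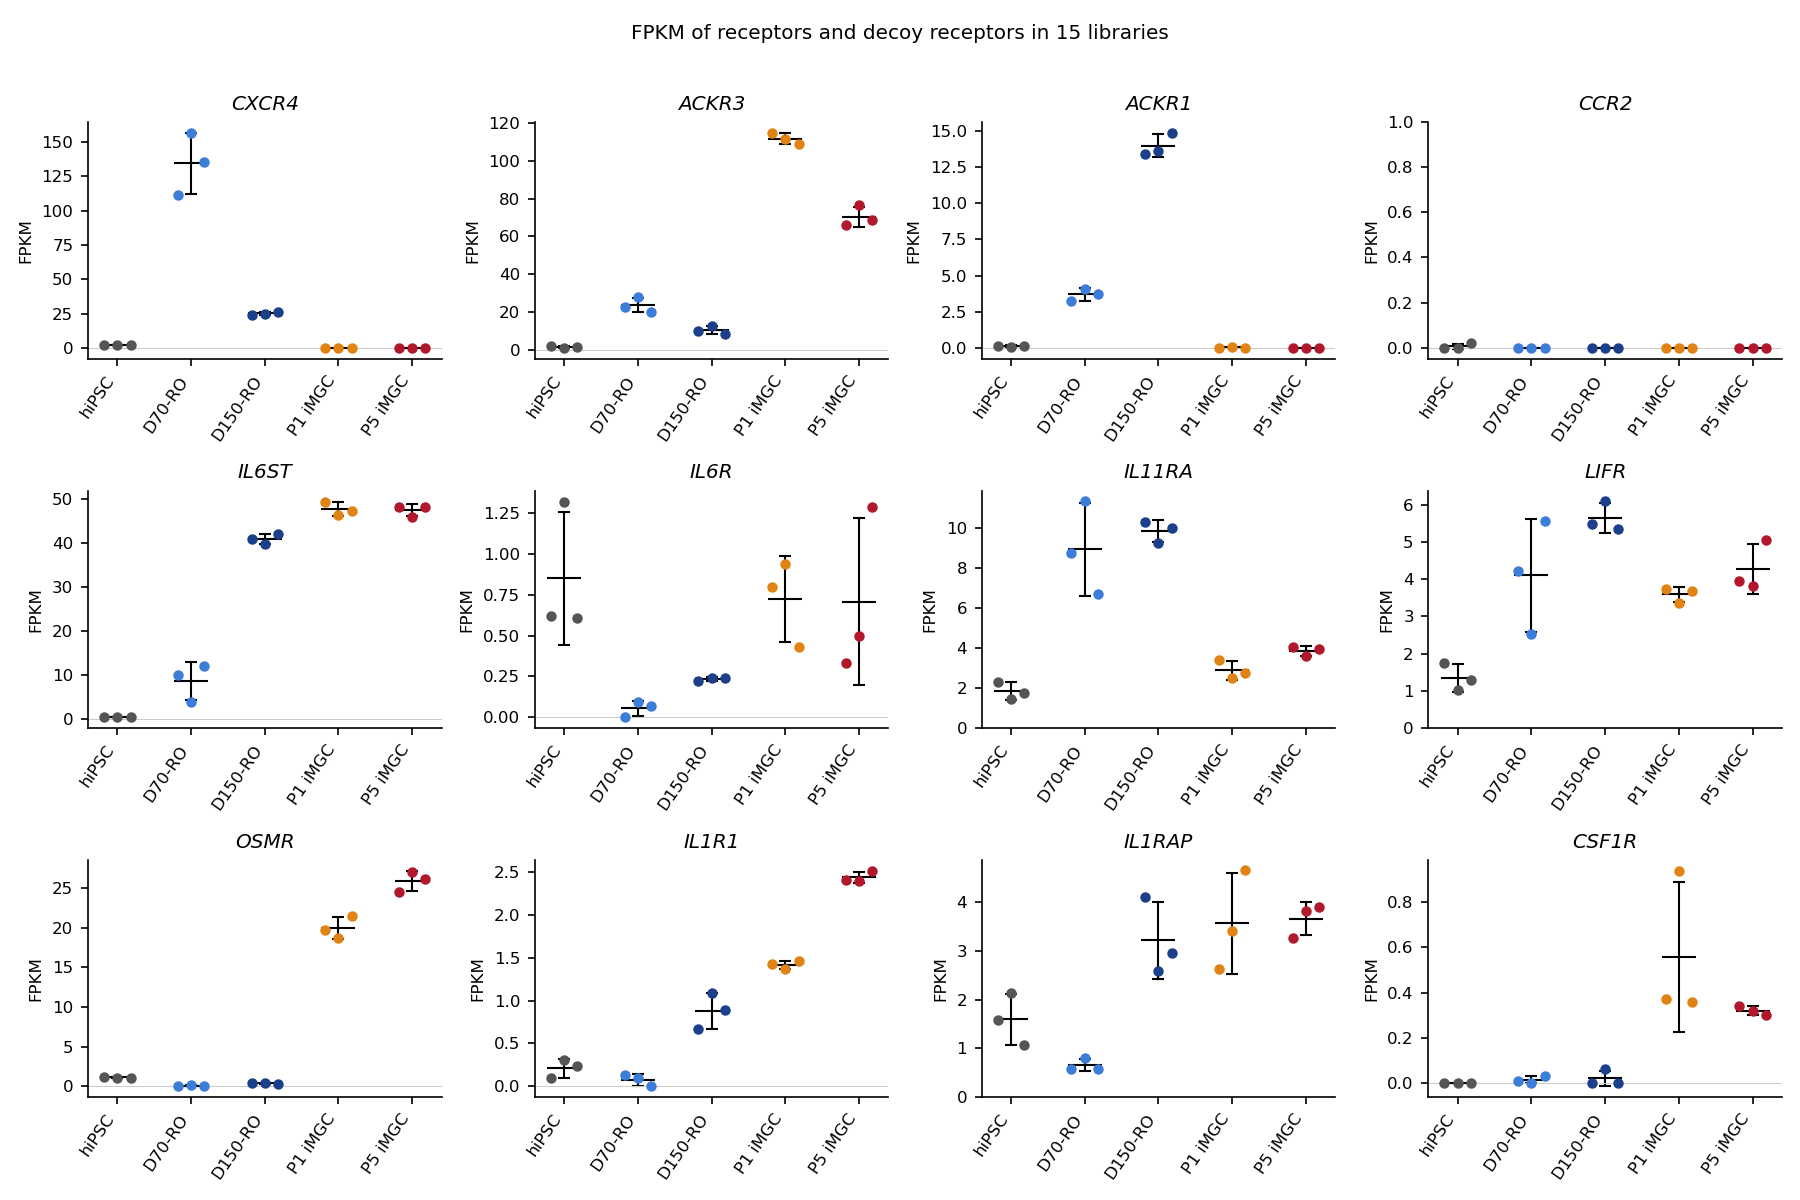
FPKM (linear axis, a scale of its own in each panel) of 12 receptor genes in the 5 groups; points are the 3 libraries of a group, the black dash is their mean and the bar the SD. CXCR4 peaks at 112 to 156 FPKM in D70-ROs and is at 0 or nearly so in iMGCs, where ACKR3 is at 65.9 to 115 FPKM and OSMR at 18.7 to 27.1 FPKM.

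For the gp130 cytokines, the shared chain was present and the specific chains differed. IL6ST was at 0.52 to 0.64 FPKM in hiPSCs, 39.7 to 41.9 in D150-ROs and 45.8 to 49.3 in iMGCs. It rose 45.1-fold from hiPSCs to D150-ROs (log2 change 5.49, SE 0.10, edgeR adjusted p = 1.57e-12), while its change at P1 against D150-ROs was 0.93 and not called. Against hiPSCs, IL6ST was tested only through D150-ROs and had to come out higher. IL6R, the specific receptor of IL6, did not reach the level for testing in any comparison and had 0.43 to 0.94 FPKM at P1 and 0.33 to 1.29 FPKM at P5. LIFR, the partner chain for LIF, was at 5.35 to 6.12 FPKM in D150-ROs, 3.36 to 3.74 at P1 and 3.82 to 5.05 at P5. The LIFR changes of −0.10 at P1 and 0.14 at P5 were not called (95% intervals −0.25 to 0.05 and 0.00 to 0.29), and on log2(FPKM + 1) the change at P5 was negative, at −0.34. IL11RA, the receptor of IL11, fell from 9.25 to 10.3 FPKM in D150-ROs to 2.50 to 3.40 FPKM at P1 (log2 change −1.37, SE 0.12, edgeR adjusted p = 4.24e-08), and at P5 its change of −0.82 was not called, but it was called lower on log2(FPKM + 1), at −1.16. These values of LIFR and IL11RA at P5 are read against the shift of all genes, −0.60. OSMR, the oncostatin M receptor chain that also pairs with gp130, was named after its values were seen. It was at 0.31 to 0.41 FPKM in D150-ROs, 18.7 to 21.5 at P1 and 24.6 to 27.1 at P5, a rise of 6.54 on the log2 scale at P1 (SE 0.09). OSMR was tested there only through the iMGCs and had to come out higher.

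The interleukin-1 receptor chains were low. IL1R1 rose from 0.67 to 1.09 FPKM in D150-ROs to 1.37 to 1.46 at P1 and 2.40 to 2.52 at P5. Its log2 fold changes against D150-ROs were 1.28 at P1 and 2.13 at P5, and on log2(FPKM + 1) both were under 2-fold, at 0.37 and 0.88. On log2(FPKM + 0.1) the change at P1 was 0.65, and IL1R1 stayed called higher at P5. IL1RAP, its co-receptor, had 2.59 to 4.10 FPKM in D150-ROs and 2.62 to 4.66 in iMGCs and was not called there. The decoy IL1R2 had 0 counts in all 15 libraries and the antagonist IL1RN 2 counts in all. CSF1R, the receptor of CSF1 and a microglial marker, had 0 counts in hiPSCs, 4 in D150-ROs, 78 at P1 (0.37, 0.94 and 0.36 FPKM) and 64 at P5 (0.34, 0.32 and 0.30 FPKM), too low for the test. Over all 16 receptors and decoys, 8 were tested at P1 against D150-ROs, of which 2 rose (IL1R1 and ACKR3) and 3 fell (CXCR4, IL11RA and ACKR1), beside 20.0% of all genes higher and 24.1% lower, and between P5 and P1 0 of 6 were called. CXCR4 and ACKR1 were tested only through D150-ROs and had to come out lower. IL1R1 reached 1 FPKM in all P1 libraries but not in all D150-RO libraries, so it passed the filter only through P1.

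Most other cytokines of the same families were under 1 FPKM in iMGCs. Of 27 further chemokines and cytokines, 4 reached a mean of 1 FPKM at P1 and 3 at P5. CCL7, CCL8, CXCL9 and CXCL10 had 0 counts in iMGCs, and TNF had 2 counts at P1 and 4 at P5. At P1 against D150-ROs 5 of the 27 were tested, with 2 higher and 1 lower, and between P5 and P1 0 of 4 were called. CLCF1, another gp130 ligand, rose from 2.80 to 3.13 FPKM in D150-ROs to 7.71 to 10.1 at P1 (log2 change 2.29, SE 0.13, edgeR adjusted p = 1.30e-10). CTF1, the gp130 ligand cardiotrophin-1, rose from 1.02 to 1.27 FPKM to 3.70 to 3.83 FPKM (2.39, SE 0.18, edgeR adjusted p = 5.23e-09). CXCL16 and CX3CL1, chemokines with a membrane anchor, were at 1.58 to 2.01 and 1.46 to 1.88 FPKM at P1 and were not called against D150-ROs. CXCL3 was the 1 gene of the list to fall there, from 1.08 to 1.14 FPKM to 0.05 to 0.17 FPKM, and was named after its values were seen. CXCL3 was tested only through D150-ROs and had to come out lower.

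Of 26 genes of the NF-kappaB pathway, 25 were tested at P1 against D150-ROs, with 9 higher, 1 lower and a median log2 change of 0.67. At P5 24 were tested, with 11 higher, 1 lower and a median of 0.60. Over all genes 20.0% were called higher and 24.1% lower at P1, and 20.8% and 23.9% at P5. The list had 23 genes at a mean of at least 1 FPKM in D150-ROs, 25 at P1 and 24 at P5. A gene that passed the filter only through the iMGCs had to come out higher, so these counts and medians are no support. The medians of the list are close in size to the shift between scales of −0.55 at P1 and −0.60 at P5. TNFRSF1A, the TNF receptor, rose from 19.8 to 26.1 FPKM in D150-ROs to 44.6 to 51.0 FPKM at P1 (log2 change 1.78, SE 0.06, edgeR adjusted p = 1.22e-13). TNIP1, an inhibitor of the pathway, had 18.7 to 20.6 FPKM in D150-ROs, 31.7 to 36.3 at P1 and 41.1 to 46.3 at P5, and its call at P1 was lost on log2(FPKM + 1), at 0.77. RELA, the main activating subunit, was at 31.0 to 35.1 FPKM in D150-ROs and 27.3 to 36.7 FPKM in iMGCs, and the upstream kinase MAP3K7 at 25.0 to 26.6 and 14.9 to 18.5 FPKM. On the count scale neither RELA nor MAP3K7 was called at either passage. REL, the 1 gene lower at both passages, went from 17.0 to 18.9 FPKM to 4.29 to 5.20 FPKM and was named after its values were seen.

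Between P5 and P1, where IL6, CXCL1 and CXCL12 rose, 4 of 25 NF-kappaB genes were called. These 4 were named after their values were seen. NFKBIZ, a nuclear cofactor known to be needed for IL6 induction, rose from 2.93 to 3.18 FPKM to 8.01 to 9.05 FPKM (log2 change 1.44, SE 0.08, edgeR adjusted p = 9.56e-13). IRAK1, a kinase of the interleukin-1 pathway, rose by 1.83 on the log2 scale and CEBPD, a transcription factor of acute phase genes, by 1.35. TLR3, a sensor of double-stranded RNA, fell by 2.17. The list had 25 genes at a mean of at least 1 FPKM at P1 and 24 at P5. A gene that passed the filter through 1 passage alone had its direction fixed, which may hold for TLR3. The count of 4 is thus no support. The share called over all genes was 2.92%.

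Of 12 genes of the JAK-STAT3 pathway, 12 were tested at P1 against D150-ROs, with 2 higher (OSMR and JAK1), 3 lower (SOCS2, SOCS3 and CISH) and a median log2 change of 0.06. As said above, the direction of OSMR was fixed by the filter. Of the 12 genes, 11 had a mean of at least 1 FPKM at P1, and a gene tested only through D150-ROs had to come out lower. STAT3, the main effector of gp130, was at 55.3 to 60.8 FPKM in D150-ROs, 34.4 to 38.1 at P1 and 38.4 to 41.2 at P5. On the count scale STAT3 was not called at either passage. JAK1 was at 34.7 to 37.2 FPKM in D150-ROs, 48.6 to 51.2 at P1 and 64.9 to 68.1 at P5, with log2 fold changes of 1.12 and 1.61 on the count scale and of 0.47 and 0.89, under 2-fold, on log2(FPKM + 1). All genes shifted by −0.55 at P1 and −0.60 at P5 between these scales. PTPN11, a phosphatase that signals from gp130, was at 48.2 to 59.4 FPKM in D150-ROs and 50.1 to 55.4 FPKM in iMGCs. SOCS3, the feedback inhibitor that gp130 signalling induces, fell from 6.08 to 6.59 FPKM in D150-ROs to 1.50 to 2.06 FPKM at P1 and was named after its values were seen. D70-ROs held SOCS3 at 0.76 to 1.16 FPKM.

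The genes with the most similar course were found by Pearson's r of log2(FPKM + 1) over the 15 libraries. Such r values mostly restate which groups are high, since all libraries of a group share their culture. LIF was closest to SRPX2 (r = 0.995), MICAL2 and INHBA, the last of which encodes activin A and was at 1.37 to 1.53 FPKM in D150-ROs, 103 to 112 at P1 and 79.2 to 82.1 at P5. IL11 was closest to SMURF2 (r = 0.997), DDAH1 and PRRC1. CCL2 was closest to IGFBP3 (r = 0.995), MAMDC2 and TGFBI, and TGFBI was at 2762 to 2919 FPKM at P1 and 3879 to 3969 at P5. CXCL8 followed PDCD1LG2, ITGB3 and KRTAP2-3 (r = 0.984, 0.983 and 0.982).

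The remaining members had other neighbours. IL6 was closest to KCNJ16 (r = 0.989), PLA1A and GCNT3, and CXCL1 was close to UGT2B7 (r = 0.988) and CHI3L1. CHI3L1, a secreted glycoprotein of reactive glia, had 0.59, 1.52 and 0.95 FPKM at P1 and 3.50, 3.63 and 3.02 at P5. CSF1 was closest to SYTL2 (r = 0.978), PDP1 and PRR16. CXCL12 had no gene as close, the first being APCDD1L (r = 0.871), then PAPLN. CXCL2 and IL1B were too low for such a comparison.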

How the data were processed

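Poly(A) RNA from 15 libraries was sequenced, and the authors used HISAT2, StringTie and RSEM. Genome build, annotation and versions are not given in the sources used here. The deposited expected counts are RSEM estimates without normalization, and the deposited FPKM were scaled by the authors for length and mapped fragments. Between 8.21% and 10.1% of expected counts were not whole and were rounded. Positions are from GENCODE 29, which holds all 19684 identifiers. A deposited table with 6 iMGC columns without a passage was not used, nor were its repeats of the D150-RO columns (12 columns). Differences were tested in R 4.3.3 with edgeR 4.0.16 (TMM, groups taken pairwise). Alternatives were other scalings and filters, DESeq2 1.42.0, limma 3.58.1 on log2(FPKM + 1) and log2(FPKM + 0.1), all libraries in 1 fit, a test against 2-fold, a replicate block and leaving out each library. The code was tested on simulated data. Intervals of count ratios and the bounds cover counting error only, while the intervals of LIFR are from the edgeR fit.

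The members and all lists were chosen with earlier results of these data known. The text names the members, their 16 receptors and decoys, the 4 genes of highest mean FPKM in each of the lists of other cytokines, NF-kappaB and JAK-STAT3 genes, and the 3 genes most correlated with each member. Some genes that these rules name are not reported here. Promoter sequences are from RefSeq, found for 7 of 10 members, and motifs were chosen after the sequences were seen. The sources give 3 or 2 independent experiments for hiPSCs and ROs, so p-values may measure technical spread only. A batch correction is named too, but not the libraries or values concerned. Batch and group cannot be told apart here.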

Additional observations from a re-analysis of the deposited data

How the results depend on the processing

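Of 210 log2 fold changes of members with a library left out, 205 kept their direction and side of the limits, as did 332 of 350 under other alternatives. Of the rest, CCL2 in D150-ROs against hiPSCs turned from −0.09 to 0.15 and 0.25 with limma (pseudocounts 1 and 0.1). Among receptors, LIFR turned to −0.11 in D150-ROs against D70-ROs without D70-RO replicate 2 (range with a library left out −0.11 to 0.40), and to −0.34 and −0.40 in P5 iMGCs against D150-ROs with limma, and IL6ST to −0.0069 and −0.0071 in P5 against P1 iMGCs. The number of members called between D70-ROs and hiPSCs, 0 as reported by edgeR, was 2 without a filter, 1 with filterByExpr, RLE factors, limma (0.1) or all 15 libraries in 1 fit, and 0 to 1 with a library left out, being 1 without hiPSC replicate 3 or D70-RO replicate 2. It was also 1 with the replicate block. Without a filter the calls were CXCL12 and IL11, both lower. The 1 call was CXCL12 as lower with RLE factors, all 15 libraries in 1 fit, the block and either of these libraries left out. With limma (0.1) it was CSF1 as higher, at 1.05. The block changed no other count of members. Libraries of equal number had correlations of −0.08 to 0.35 between their deviations, and those of unequal number −0.33 to 0.33. Between D70-ROs and hiPSCs equal numbers gave 0.02, 0.35 and 0.14, and the block moved CXCL12 to −1.13. These values do not settle whether equal numbers pair the libraries. Between D150-ROs and D70-ROs the count of 2 became 4 with limma (0.1) and 1 in the test against 2-fold, and 2 to 3 with a library left out. Between P1 iMGCs and D150-ROs the 4 calls became 8 without a filter, adding CXCL1, IL6 and IL1B as higher and CXCL2 as lower (adjusted p = 0.0426). Over all genes, 4276 calls between D150-ROs and D70-ROs became 2830 in the test against 2-fold, and 332 calls between P5 and P1 iMGCs became 694 without a filter, 569 with filterByExpr, 152 with limma (1) and 161 in the test against 2-fold. Between D150-ROs and D70-ROs, 49.8% of calls were higher, against 63.3% with limma (1). Upper-quartile factors moved the median of all genes by −0.12, −0.11 and −0.10 at P1 and P5 against D150-ROs and in D150-ROs against D70-ROs. The causes were not tested. Counts under about 100 over a group, as for CXCL1, CXCL2, IL1B and IL6 at P1, limit what depth can show.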
